A study of Mus musculus with 4 samples.

Results

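The 50 genes of mitosis and the mitotic spindle described here were followed across all 4 libraries of the series. They were chosen by gene symbol with earlier results of these data known, so their place among all genes is a description only. They run from cyclins and kinases that start mitosis to the motors, kinetochore proteins and condensins that move and pack chromosomes. All 50 were found once each among the 55536 Ensembl gene rows of the count tables, on 16 chromosomes of GRCm38. Every one had reads in every library and passed the filter on low values, which asked that reads per 1000000 gene-assigned reads (CPM) average at least 1 over the pair compared.

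The cells were primary ear fibroblasts of C57BL/6 mice, kept in medium with fetal calf serum. All groups share a step of 48 h in KN93, which blocks calmodulin-dependent kinase II and served, per the labels, for cell-cycle synchronization, and then a transfection of 24 h. The groups are whole-cell RNA and RNA recovered with an antibody to fibrillarin, the nucleolar RNA methyltransferase, each in a state labelled AF357425-High (overexpression in the sample labels) and in one labelled AF357425-Low (inhibition). AF357425 is a C/D box small nucleolar RNA. The treatment protocol instead names gapmers, antisense oligonucleotides that lead RNA to be cut, against AF357425 or a scrambled control, so what was transfected in each state is not settled by the labels. The sources used here do not give how many mice or cultures stand behind a library, and name a depletion of ribosomal RNA only for the pulldown.

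Each group has 1 library, so no difference described here has a replicate check and no test between groups was run. Intervals are 95% intervals from the read counts and cover counting error only. They treat each read as independent, while amplified reads that carry no molecular identifiers are not independent molecules. The intervals may therefore be too narrow even for counting error. The libraries held 21693030 to 27832061 gene-assigned reads. AF357425 itself had 0 reads in all 4, which allows up to 0.108 to 0.138 CPM, so the labelled states could not be checked on the target. In the pulldowns, 59.8% and 63.4% of gene-assigned reads came from the mitochondrial ribosomal RNAs, against at most 0.0926% in whole-cell RNA, and 8.54% and 9.38% of all fragments matched more than 1 gene, against 1.05% and 1.09%. Of 10 fibroblast markers, 8 passed the filter in whole-cell RNA, with Col1a1 at 77328 and 84317 reads in AF357425-High and AF357425-Low. The other fibroblast markers, Lum and Fap, had only 13 and 12, and 17 and 18 whole-cell reads. The keratinocyte genes Krt14 and Krt1 and the lymphocyte gene Cd3e had 0 reads in every library. On the same lists, Trp63 had 40 to 79 reads and Csf1r 10 to 52.

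Mitosis begins when cyclin-dependent kinase 1, bound to cyclin A or B, phosphorylates many proteins, and it ends when the anaphase-promoting complex (APC/C) marks the cyclins and securin for destruction. Between these points condensins compact the chromosomes, kinetochores bind them to microtubules, kinesin motors build the spindle, and a checkpoint holds anaphase until every kinetochore is attached. Most of these messenger RNAs are made in G2 and early mitosis and are low in resting cells, which is why their summed level is widely used as a reading of how much of a culture is dividing. Many of their promoters carry the cell cycle genes homology region (CHR), bound by MuvB complexes with B-MYB and FOXM1 or, in resting cells, with the repressive DREAM proteins, together with CCAAT boxes bound by the factor NF-Y.

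The promoters of the group share such sequences. RefSeq windows on GRCm38.p6 from 250 bases before to 50 bases after an annotated start were matched by symbol for 42 of the 50 genes. The CHR letters TTTGAA, read on either strand, occurred in 32 of the 42 genes (76.2%), against 20.2% of all 27025 genes with a window and 17.9% of all 32851 windows. The alternative form TTCGAA, which reads the same on both strands, was in 3 (7.14%, against 1.80% of genes). A CHR of either form lay within the last 100 bases of the window, around the start, in 29 of the 42 (69.0%), against 6.12% of all genes. CCAAT on either strand was in 30 (71.4%, against 41.1%), and a CHR and a CCAAT together in 28 (66.7%, against 8.61%). The E2F core letters TTGGCG and TTCGCG were in 10 and 3 genes (23.8% and 7.14%, against 8.26% and 4.67%). A match of letters is a description of these windows and not a measured binding site.

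The windows of 4 genes are printed because these genes mark the ends of the range of state ratios among members with a window: Kif20b (chr19:34922108-34922407, plus strand) and Ncaph (chr2:127133905-127134204, minus strand) had the lowest and the highest whole-cell ratio, and Kif23 (chr9:61946750-61947049, minus strand) and Kif18b (chr11:102925075-102925374, minus strand) the lowest and the highest pulldown ratio. Each is written 5′ to 3′ along the gene, with capitals for every CHR, CCAAT or E2F core match on either strand.
Kif20b: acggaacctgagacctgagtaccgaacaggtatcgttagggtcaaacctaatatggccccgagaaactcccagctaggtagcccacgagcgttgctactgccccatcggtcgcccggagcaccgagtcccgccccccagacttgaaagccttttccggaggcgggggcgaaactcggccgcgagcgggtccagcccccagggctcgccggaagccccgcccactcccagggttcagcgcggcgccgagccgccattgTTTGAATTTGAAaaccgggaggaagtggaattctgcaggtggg
Ncaph: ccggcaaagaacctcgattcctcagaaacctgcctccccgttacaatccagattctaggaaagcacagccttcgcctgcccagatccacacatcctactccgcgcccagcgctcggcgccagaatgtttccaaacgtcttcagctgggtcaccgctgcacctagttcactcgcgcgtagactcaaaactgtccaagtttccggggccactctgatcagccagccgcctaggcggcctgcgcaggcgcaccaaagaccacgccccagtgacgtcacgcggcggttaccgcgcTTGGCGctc
Kif23: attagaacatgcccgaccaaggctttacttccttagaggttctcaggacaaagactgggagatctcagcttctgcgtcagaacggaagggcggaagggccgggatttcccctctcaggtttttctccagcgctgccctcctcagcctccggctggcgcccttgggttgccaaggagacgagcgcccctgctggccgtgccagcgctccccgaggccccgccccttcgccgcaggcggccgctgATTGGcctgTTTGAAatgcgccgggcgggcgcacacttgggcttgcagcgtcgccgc
Kif18b: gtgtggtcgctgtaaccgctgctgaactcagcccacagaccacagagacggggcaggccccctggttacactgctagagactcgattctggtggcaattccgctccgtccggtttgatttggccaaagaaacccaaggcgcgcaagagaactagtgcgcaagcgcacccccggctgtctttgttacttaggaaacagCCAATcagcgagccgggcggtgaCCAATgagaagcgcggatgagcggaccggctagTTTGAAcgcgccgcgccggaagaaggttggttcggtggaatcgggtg
Counted from the annotated start as base 1, Kif20b holds 2 TTTGAA copies in tandem, at bases 8 and 14, and no CCAAT. Kif23 has a CHR at base 3 behind a CCAAT on the other strand at base -7, and Kif18b has a CHR at base 4 with CCAAT at bases -53 and -30. Ncaph has neither and holds a TTGGCG at base 42. The genes with the lowest and the highest pulldown ratio thus both hold a CHR just after the start and CCAAT upstream of it. Across the group, the median whole-cell log2 ratio of AF357425-High to AF357425-Low was -0.40 for the 32 genes with TTTGAA and -0.42 for the 10 without, and the pulldown medians were -0.60 and -0.95.

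In whole-cell RNA, all 50 genes had fewer scaled reads in AF357425-High than in AF357425-Low. Together they took 1077 CPM in AF357425-High (exact 95% interval 1063 to 1091) and 1377 CPM in AF357425-Low (1361 to 1392), a log2 ratio of the sums of -0.42 (-0.44 to -0.39) after trimmed-mean (TMM) scaling. The ratios of single genes ran from -0.99 to -0.019 with a median of -0.39, which places the middle gene of the group 23.6% below its AF357425-Low level, while the median of all 13519 measured genes was -0.0086. No gene passed 2-fold with its whole interval, against 0.133% of all measured genes on the lower side and 0.111% on the higher. A ratio at least 1.5-fold lower was seen in 7 of the 50, against 3.84% of all genes, and as much higher in 0, against 3.32%, while 37 had their whole interval below no change, against 20.5%. Of all measured genes, the lowest-ranked 10% held 28 of the 50. In bulk RNA, fewer dividing cells and less of these RNAs per cell cannot be told apart.

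In the fibrillarin pulldown, 48 of the 50 were lower in AF357425-High and the differences were wider. The sums were 1214 CPM in AF357425-High (1200.4 to 1227) and 2425 CPM in AF357425-Low (2407 to 2443), a log2 ratio of -0.70 (-0.72 to -0.68). Ratios ran from -1.67 for Kif23 to 0.46 for Kif18b, and the median was -0.68, 37.5% below the AF357425-Low level, against -0.011 for the 10736 genes measured in the pulldown. Lower by more than 2-fold with the whole interval were 11 of the 50, against 2.9% of all measured genes, and none was higher, against 3.43%. At least 1.5-fold lower were 26, against 17.3% of genes, and 0 as much higher, against 15.6%, while 41 had their whole interval below no change, against 32.5%, and 1 above, against 31.5%. The scaling sets where zero lies: with library totals the median of all pulldown genes moved by -0.29, and the group's median became -0.97. The gap between the group's median and that of all genes, -0.67 with TMM, does not depend on the scaling.

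**Figure D1:**
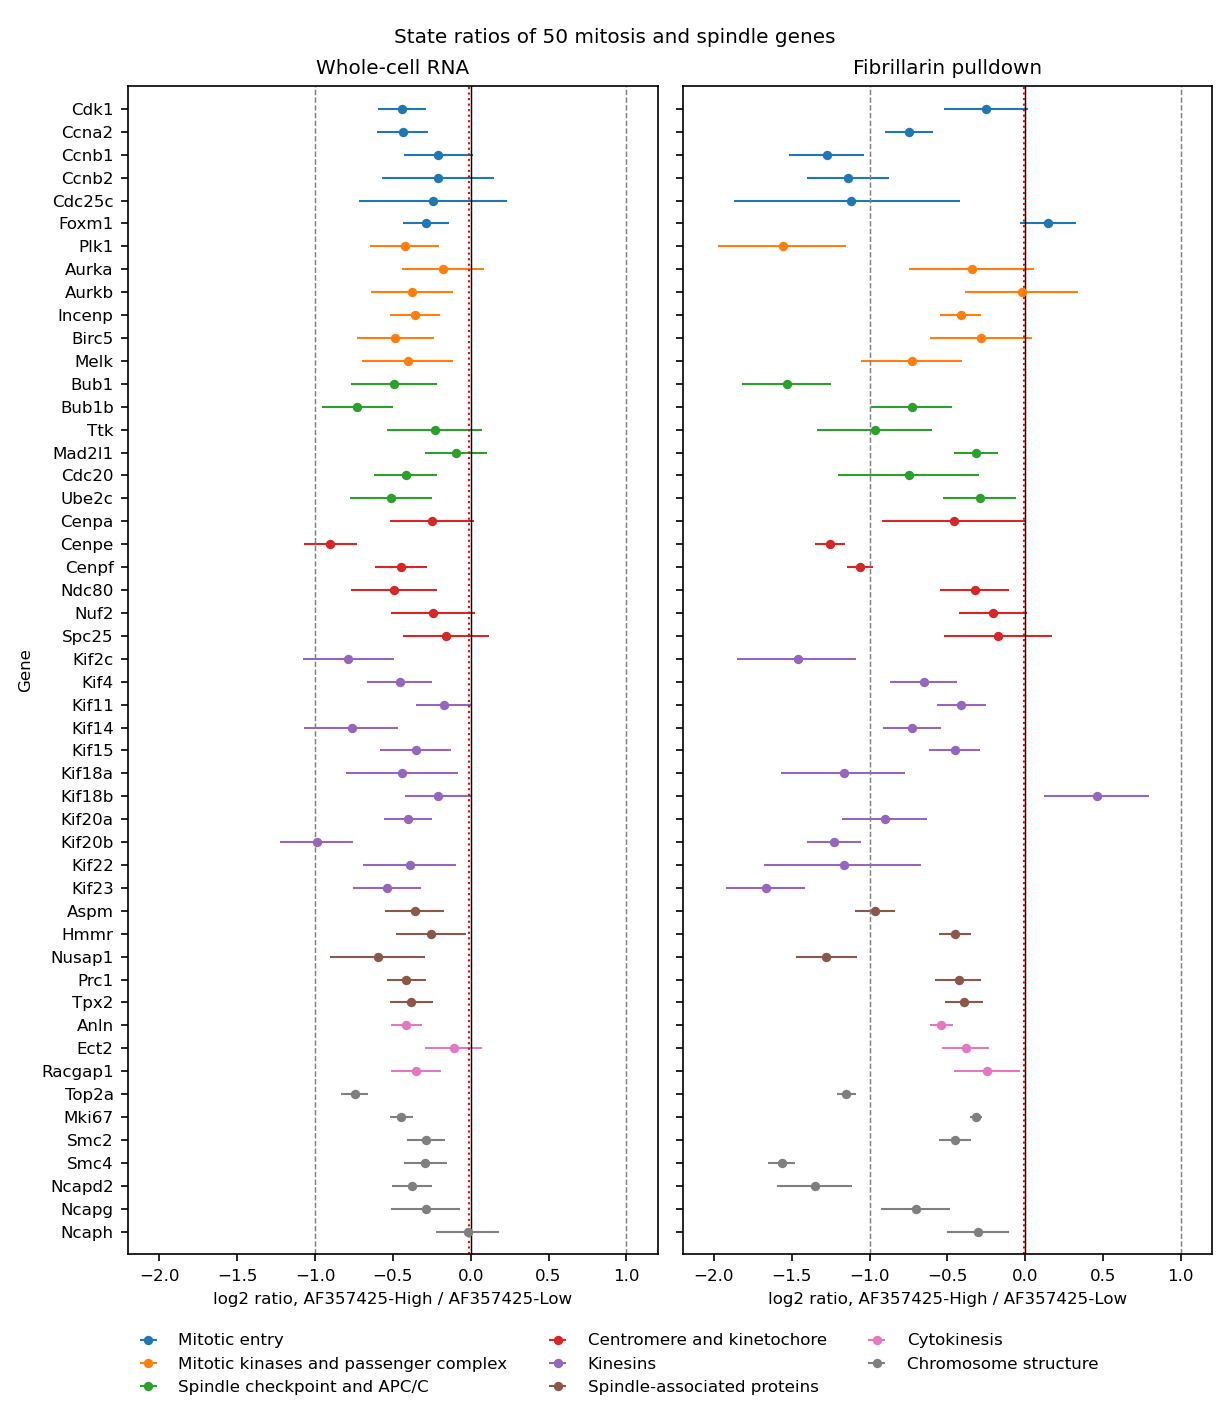
Log2 ratio of AF357425-High to AF357425-Low after TMM scaling (x axis) for each of the 50 genes (y axis, coloured by role), in whole-cell RNA on the left and in the fibrillarin pulldown on the right; points are single-library ratios, bars 95% counting intervals, dashed lines 2-fold and the dotted red line the median of all measured genes. All 50 whole-cell points and 48 of 50 pulldown points lie left of 0; Kif18b and Foxm1 are the pulldown exceptions.

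At the 1.5-fold line, the 7 genes found low in whole-cell RNA were a subset of the 26 found low in the pulldown. The 7 genes past it in whole-cell RNA were Kif20b, Cenpe, Kif2c, Kif14, Top2a, Bub1b and Nusap1, and the other 19 were past it in the pulldown alone. Of all measured genes, 3.84% were this low by whole-cell ratio and 17.3% by pulldown ratio. How many of them were this low by both ratios was not counted, so the overlap is a description only. Across the 50 genes the whole-cell and pulldown ratios had a Pearson r of 0.420 and a Spearman rho of 0.388, against 0.107 and 0.0875 across 10353 genes measured in both, as a description with genes as points. The sources used here do not say if these libraries share a culture. The pulldown ratio was the lower one for 38 of the 50 genes.

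**Figure D2:**
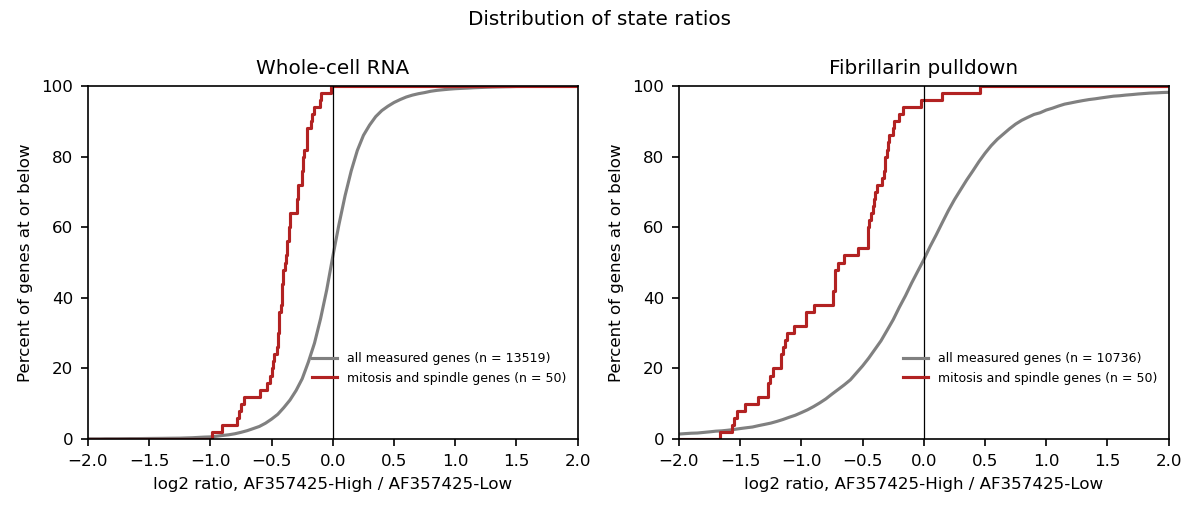
Percent of genes (y axis) with a log2 ratio of AF357425-High to AF357425-Low at or below the value on the x axis, for the 50 mitosis and spindle genes (red) and for all measured genes (grey), in whole-cell RNA (left) and in the pulldown (right). At a ratio of 0 the red curve stands at 100% in whole-cell RNA and at 96% in the pulldown, where the grey curve is near its middle.

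Markers of other cell types were read beside the state difference. Of 7 cartilage markers, 5 were measured in whole-cell RNA and all 5 were higher in AF357425-High, with sums of 288 CPM against 203 CPM in AF357425-Low and 2 past 2-fold, Cnmd and Col2a1; in the pulldowns the sums were 113 and 141 CPM. The 10 fibroblast markers summed to 10047 and 11565 CPM in whole-cell RNA and to 3042 and 3605 CPM in the pulldowns. On the TMM scale used for the members, the log2 ratios of the fibroblast sums were -0.27 (-0.28 to -0.26) in whole-cell RNA and 0.05 (0.037 to 0.064) in the pulldown, and those of the cartilage sums 0.44 (0.39 to 0.50) and -0.017 (-0.087 to 0.052). Summed endothelial, immune, keratinocyte, and melanocyte and Schwann cell markers ranged from 0.503 to 8.16 CPM over the libraries, and muscle markers from 13.2 to 16.8 CPM. The part that cartilage-marker RNA had in the lower mitosis genes was not tested.

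The genes that start mitosis differed in the pulldown more than in whole-cell RNA, with Foxm1 and Cdk1 as exceptions. In the pairs of values that follow, AF357425-High comes first and AF357425-Low second. Ccnb1, cyclin B1, the regulatory partner of Cdk1, had 327 and 355 whole-cell reads (14.8 and 16.4 CPM) and 188 and 600 pulldown reads (7.27 and 21.6 CPM). Its whole-cell ratio of -0.21 (-0.43 to 0.012) could not be told from no change, while its pulldown ratio of -1.27 (-1.52 to -1.03) passed the 2-fold line. The second B cyclin, Ccnb2, paralleled it at -0.21 (-0.57 to 0.15) and -1.14 (-1.40 to -0.88), and so did Cdc25c, the phosphatase that activates Cdk1, at -0.24 and -1.12 (-1.87 to -0.42), although it rests on only 23 and 66 pulldown reads. Cyclin A2, encoded by Ccna2, had -0.44 (-0.60 to -0.27) and -0.74 (-0.90 to -0.59). Cdk1, the kinase itself, had 613 and 783 whole-cell reads (27.8 and 36.1 CPM) and 186 and 292 pulldown reads (7.19 and 10.5 CPM), with the lowest whole-cell ratio of these genes at -0.44 (-0.60 to -0.29) and a pulldown ratio of -0.25 (-0.52 to 0.02). Foxm1, the transcription factor that drives many of the other genes, had 702 and 806 whole-cell reads (31.8 and 37.2 CPM) and 477 and 569 pulldown reads (18.4 and 20.4 CPM). It was lower in whole-cell RNA (-0.29, interval -0.44 to -0.14) and slightly to the other side in the pulldown (0.15, interval -0.032 to 0.32), where its interval included no change. Ccnb1 and Ccnb2 have pseudogene copies in the annotation, Ccnb1-ps and Ccnb2-ps, and how reads were divided between copies is not known.

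Among the mitotic kinases and the chromosomal passenger complex, Plk1 stood apart in the pulldown. Polo-like kinase 1, which matures centrosomes and triggers spindle assembly, had 304 and 383 whole-cell reads (13.8 and 17.7 CPM) and 64 and 248 pulldown reads (2.48 and 8.91 CPM). Its pulldown ratio of -1.55 (-1.97 to -1.15) was past 2-fold and its whole-cell ratio was -0.42 (-0.65 to -0.20). The pulldown ratios of the Aurora kinases could not be told from no change. Aurka, the centrosomal one, had 236 and 251 whole-cell reads (10.7 and 11.6 CPM) and 85 and 142 pulldown reads (3.29 and 5.10 CPM), with ratios of -0.18 (-0.44 to 0.083) and -0.34 (-0.74 to 0.058). Aurkb, the kinase of the passenger complex, had 223 and 272 whole-cell reads (10.1 and 12.5 CPM) and 112 and 150 pulldown reads (4.33 and 5.39 CPM), with -0.38 (-0.64 to -0.12) and -0.021 (-0.39 to 0.34). Its partner survivin, Birc5, had 239 and 314 whole-cell reads and 129 and 207 pulldown reads, with the lowest whole-cell ratio of this set, -0.48 (-0.73 to -0.24), and -0.28 (-0.61 to 0.043) in the pulldown. The scaffold of the complex, Incenp, had 585 and 703 whole-cell reads (26.5 and 32.4 CPM) and 717 and 1262 pulldown reads (27.7 and 45.3 CPM), and its ratios of -0.36 (-0.52 to -0.20) and -0.41 (-0.55 to -0.28) overlapped each other. Melk, a kinase of dividing cells, had -0.40 and -0.73 (-1.05 to -0.41). The passenger-complex genes thus had whole-cell ratios between -0.48 and -0.36 and pulldown ratios between -0.41 and -0.021.

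Spindle checkpoint genes were lower in all 6 cases in both kinds of library. Bub1, the checkpoint kinase of the kinetochore, had 194 and 256 whole-cell reads (8.79 and 11.8 CPM) and 130 and 495 pulldown reads (5.03 and 17.8 CPM). Its pulldown ratio was -1.53 (-1.82 to -1.25), past 2-fold, and its whole-cell ratio -0.49 (-0.77 to -0.22). Bub1b, which encodes BubR1, part of the complex that inhibits the APC/C, had 261 and 406 whole-cell reads (11.8 and 18.7 CPM) and 179 and 391 pulldown reads (6.92 and 14.0 CPM) and near-equal ratios in both kinds of library, -0.73 (-0.96 to -0.50) and -0.73 (-0.99 to -0.47). Ttk, the kinase that starts checkpoint signalling, had -0.23 (-0.54 to 0.071) and -0.96 (-1.34 to -0.60). Mad2l1, the checkpoint protein that binds Cdc20, was the highest of this set in whole-cell RNA, with 421 and 422 whole-cell reads (19.1 and 19.5 CPM) and 653 and 1072 pulldown reads (25.3 and 38.5 CPM) and ratios of -0.094 (-0.29 to 0.10) and -0.31 (-0.46 to -0.17). On the side of the APC/C, its activator Cdc20 had -0.42 and -0.75 (-1.21 to -0.30), and its ubiquitin-conjugating enzyme Ube2c had 209 and 280 whole-cell reads and 246 and 398 pulldown reads with -0.51 (-0.78 to -0.25) and -0.29 (-0.53 to -0.06).

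At the centromere, the lowest pulldown ratios belonged to the large outer proteins Cenpe and Cenpf. Cenpe (ENSMUSG00000045328, chromosome 3, 135212563 to 135273540), the kinesin that carries chromosomes to the spindle equator, had 448 and 786 whole-cell reads (20.3 and 36.2 CPM) and 1131 and 3563 pulldown reads (43.7 and 128 CPM). Both AF357425-High libraries were low, with ratios of -0.90 (-1.07 to -0.73) and -1.25 (-1.35 to -1.16), the latter past 2-fold. Cenpf, a large protein of the fibrous corona, had 513 and 657 whole-cell reads (23.2 and 30.3 CPM) and 1515 and 4171 pulldown reads (58.6 and 149.9 CPM), with -0.45 (-0.62 to -0.28) and -1.06 (-1.15 to -0.98), short of the 2-fold line by its upper bound. The Ndc80 complex, which grips the microtubule end, had pulldown ratios nearer to 0: Ndc80 had -0.49 (-0.77 to -0.22) and -0.32 (-0.55 to -0.11), Nuf2 had -0.24 (-0.51 to 0.029) and -0.20 (-0.42 to 0.014), and Spc25, with 215 and 225 whole-cell reads and 117 and 174 pulldown reads, had -0.16 (-0.43 to 0.12) and -0.17 (-0.52 to 0.17). Cenpa, the histone H3 variant that marks the centromere, had -0.25 and -0.45 (-0.92 to 0.0016).

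Of the 11 kinesins, all were lower in whole-cell RNA of AF357425-High and 10 in its pulldown, with medians of -0.44 and -0.90. Kif20b (ENSMUSG00000024795, chromosome 19, 34922335 to 34975750), a motor needed late in cell division, had the lowest whole-cell ratio of all 50 genes. It had 231 and 431 whole-cell reads (10.5 and 19.9 CPM) and 367 and 1135 pulldown reads (14.2 and 40.8 CPM). Its ratios were -0.99 (-1.23 to -0.76) and -1.23 (-1.40 to -1.06), and its span holds the microRNA gene Mir1950, which had at most 3 reads. Kif23 (ENSMUSG00000032254, chromosome 9, 61917277 to 61946810), the motor of the centralspindlin complex that positions the cleavage furrow, had 304 and 414 whole-cell reads (13.8 and 19.1 CPM) and 161 and 675 pulldown reads (6.23 and 24.3 CPM), with -0.54 (-0.75 to -0.32) and the lowest pulldown ratio of the group, -1.67 (-1.92 to -1.42). Kif2c, which takes microtubules apart at the centromere, had 160 and 259 whole-cell reads (7.25 and 11.9 CPM) and 74 and 269 pulldown reads (2.86 and 9.67 CPM). Its ratios of -0.79 (-1.08 to -0.50) and -1.46 (-1.85 to -1.09) put it among the lowest members in both kinds of library. Kif14, a motor of cytokinesis, had -0.77 and -0.73 (-0.91 to -0.54).

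Kif11 and Kif18b had the whole-cell ratios nearest to 0 among the kinesins. Kif11, the motor that pushes the spindle poles apart, had 508 and 538 whole-cell reads (23.0 and 24.8 CPM) and 523 and 918 pulldown reads (20.2 and 33.0 CPM), with -0.17 (-0.35 to 0.0043) and -0.41 (-0.57 to -0.25). Kif18b, which shortens astral microtubules, had 352 and 383 whole-cell reads (15.9 and 17.7 CPM) and 154 and 148 pulldown reads (5.96 and 5.32 CPM). It was lower in whole-cell RNA by a margin that its interval did not separate from no change (-0.21, interval -0.43 to 0.00024) and was the only member higher in the AF357425-High pulldown with its whole interval above 0 (0.46, interval 0.12 to 0.79). Its relative Kif18a, which dampens chromosome movement, went the other way in the pulldown, at -1.16 (-1.57 to -0.77). Kif20a, the motor that brings the passenger complex to the spindle midzone, had the most whole-cell reads of the kinesins, 610 and 758 whole-cell reads (27.6 and 34.9 CPM) and 157 and 387 pulldown reads (6.07 and 13.9 CPM), with -0.40 (-0.56 to -0.25) and -0.90 (-1.18 to -0.63). The chromokinesins Kif4 and Kif22 had -0.46 and -0.39 in whole-cell RNA and -0.65 (-0.87 to -0.44) and -1.16 (-1.68 to -0.67) in the pulldown. Kif15, which backs up Kif11, had -0.35 and -0.45 (-0.62 to -0.29).

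Microtubule-associated proteins of the spindle were lower in all 5 cases in both kinds of library. Nusap1, which bundles microtubules around chromosomes, had 152 and 216 whole-cell reads (6.88 and 9.96 CPM) and 286 and 915 pulldown reads (11.1 and 32.9 CPM), with -0.60 (-0.91 to -0.29) and -1.28 (-1.47 to -1.08), past 2-fold in the pulldown. Its span overlaps Oip5, which had 29 to 40 whole-cell reads and 26 to 52 pulldown reads. Aspm, a spindle-pole protein, had -0.36 and -0.96 (-1.10 to -0.83). Hmmr, a spindle-assembly protein first known as a hyaluronan receptor, had 311 and 348 whole-cell reads (14.1 and 16.0 CPM) and 1175 and 2123 pulldown reads (45.4 and 76.3 CPM), with -0.25 (-0.48 to -0.028) and -0.45 (-0.56 to -0.35). Tpx2, which activates Aurora A on the spindle, had 784 and 960 whole-cell reads (35.5 and 44.3 CPM) and 854 and 1483 pulldown reads (33.0 and 53.3 CPM), with -0.38 (-0.52 to -0.25) and -0.40 (-0.52 to -0.27). Prc1, the bundler of the central spindle, had 951 and 1190 whole-cell reads and 587 and 1043 pulldown reads and near-equal ratios of -0.41 (-0.54 to -0.29) and -0.43 (-0.58 to -0.28).

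None of the 3 cytokinesis genes was past 1.5-fold in either kind of library. Anln, which encodes anillin, the scaffold of the contractile ring, had 1491 and 1866 whole-cell reads (67.5 and 86.0 CPM) and 2250 and 4320 pulldown reads (87.0 and 155 CPM). Its ratios of -0.41 (-0.51 to -0.32) and -0.54 (-0.61 to -0.47) were the lowest of the set. Ect2, the exchange factor that switches on RhoA at the furrow, had 485 and 491 whole-cell reads and 570 and 980 pulldown reads, with -0.11 (-0.29 to 0.076) and -0.38 (-0.53 to -0.23). Racgap1, the centralspindlin subunit that recruits Ect2, had 590 and 708 whole-cell reads and 304 and 476 pulldown reads, with -0.35 (-0.51 to -0.19) and -0.25 (-0.46 to -0.035). Kif23, the other centralspindlin subunit, had the group's lowest pulldown ratio, so the subunits of this complex stood -0.25 against -1.67.

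Genes of chromosome structure gave the most reads of the group. Mki67, the proliferation marker that coats mitotic chromosomes, had 2602 and 3330 whole-cell reads (118 and 154 CPM) and 8259 and 13580 pulldown reads (319 and 488 CPM). Its ratios were -0.45 (-0.52 to -0.37) and -0.32 (-0.36 to -0.28), so that this widely used marker of dividing cells was closer to no change in the pulldown than the group's median. Top2a (ENSMUSG00000020914, chromosome 11, 98992947 to 99024199), the topoisomerase that untangles sister chromatids, had 1695 and 2671 whole-cell reads (76.8 and 123 CPM) and 2921 and 8549 pulldown reads (113 and 307 CPM), with -0.75 (-0.84 to -0.66) and -1.15 (-1.21 to -1.09). The condensin subunits split in the pulldown. Smc4 (ENSMUSG00000034349, chromosome 3, 69004738 to 69034623), an ATPase shared by both condensins, had 783 and 900 whole-cell reads (35.5 and 41.5 CPM) and 1360 and 5311 pulldown reads (52.6 and 191 CPM), with -0.29 (-0.43 to -0.15) in whole-cell RNA and -1.56 (-1.65 to -1.48) in the pulldown. Its ATPase partner Smc2 had -0.29 (-0.41 to -0.17) and -0.45 (-0.55 to -0.35). Of the condensin I subunits, Ncapd2 had 935 and 1140 whole-cell reads (42.3 and 52.6 CPM) and 186 and 627 pulldown reads (7.19 and 22.5 CPM), with -0.38 (-0.50 to -0.25) and -1.35 (-1.60 to -1.11). Ncaph, with 411 and 391 whole-cell reads and 331 and 539 pulldown reads, had the whole-cell ratio nearest to 0 of all 50 genes (-0.019, interval -0.22 to 0.18) and -0.30 (-0.50 to -0.10) in the pulldown, and Ncapg had -0.29 and -0.70 (-0.93 to -0.48).

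Some of these genes overlap other annotated genes, and without a stated strand setting reads of overlapping genes cannot be told apart. Of the 50, 24 overlap another RefSeq gene, among them 5 of the 11 past 2-fold in the pulldown: Kif20b, Nusap1, Top2a, Smc4 and Ncapd2. The overlapping genes of Smc4, the microRNAs Mir15b and Mir16-2, had at most 5 reads in any library, and the Cajal body RNA Scarna10 in Ncapd2 had 0 reads in every library. Top2a overlaps an annotated snoRNA that has no row in the count tables, so its reads in the fibrillarin pulldown could not be counted apart. Among the other members, Cdc20 overlaps Elovl1, which had 1770 and 1631 whole-cell reads, and Aurka overlaps Cstf1 (712 and 749). Kif20a overlaps Brd8 (1324 and 1289) and Cdc23 (1071 and 922). All these counts are above the reads of the members named with them. Ccna2 overlaps Exosc9, which had 703 and 694 whole-cell reads and 278 and 221 pulldown reads. Ncapg overlaps Lcorl, which had 383 and 340 whole-cell reads and 223 and 461 pulldown reads. Without the 24, the 26 remaining genes had medians of -0.40 and -0.59, all 26 and 25 of them negative, 3 and 13 were at least 1.5-fold lower, and 6 were past 2-fold in the pulldown.

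Next, each state's pulldown was set against its own whole-cell library, scaled by library totals. None of the 4 libraries is a control pulldown, and a depletion of ribosomal RNA is named only for the pulldown. In these ratios RNA bound to fibrillarin, background and a difference in library preparation cannot be told apart. The group lay above the all-gene median, as did related lists. Its median log2 ratio of pulldown to whole-cell RNA was -0.59 in AF357425-High and 0.23 in AF357425-Low, while the medians of all measured genes were -2.15 and -1.75. The further mitosis genes had -0.99 and -0.53 and the cohesin genes -0.78 and 0.22, so a place above the median was not particular to the group. The members above the all-gene median numbered 46 and 48 of the 50. In AF357425-High, 10 were more than 2-fold lower with the whole interval, against 74.1% of all measured genes, and 3 more than 2-fold higher, against 2.41%. In AF357425-Low these were 6 and 10 genes, against 62.4% and 2.58%. Library totals include the mitochondrial ribosomal RNA of the pulldowns. With TMM the group's medians became 1.25 and 1.65, and 8 and 4 members were below 0 with none of them more than 2-fold lower, but the gap to the all-gene median, 1.56 in AF357425-High and 1.98 in AF357425-Low, is free of the scaling.

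Of the members more than 2-fold higher in the pulldown, 3 in AF357425-High and 10 in AF357425-Low, 3 were shared between states. Of those lower, 10 and 6, 6 were shared. Among all measured genes, 2.41% and 2.58% were higher and 74.1% and 62.4% lower, and the shares in both states were not counted. Hmmr, Cenpf and Mki67 were more than 2-fold higher in the pulldown in both: Hmmr by 1.69 (1.51 to 1.87) in AF357425-High and 2.25 (2.09 to 2.42) in AF357425-Low, Cenpf by 1.33 (1.19 to 1.48) and 2.31 (2.19 to 2.43), and Mki67 by 1.44 and 1.67. Cenpe was the next in AF357425-High, with 1.11 (0.95 to 1.27) and 1.82 (1.71 to 1.93). At the other end, Cdc20, Ncapd2, Kif20a, Cenpa, Cdk1 and Kif18b were more than 2-fold lower in both states, with Cdc20 at -2.78 (-3.19 to -2.38) and -2.09 (-2.38 to -1.81), Ncapd2 at -2.56 (-2.79 to -2.33) and -1.22 (-1.36 to -1.08) and Cdk1 at -1.95 (-2.19 to -1.71) and -1.78 (-1.98 to -1.59). With TMM or without mitochondrial genes, no member was more than 2-fold lower in either state. By library totals, the AF357425-Low medians of the kinetochore and spindle-associated sets were above 0, at 0.49 and 1.38. That of the kinase set was below 0, at -0.97, but above the all-gene median of -1.75. For Ccna2, Ccnb1, Bub1, Kif11 and Kif23 the whole interval by library totals lay below 0 in AF357425-High, as for 90.7% of all measured genes, and above 0 in AF357425-Low, as for 7.89%. The share of all genes with both was not counted. These 5 members were above 0 in both states with TMM and also without mitochondrial genes. Across the 50 genes, the ratios of the states had a Spearman rho of 0.933, against 0.841 across 12099 genes; these ratios come from different libraries.

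**Figure D3:**
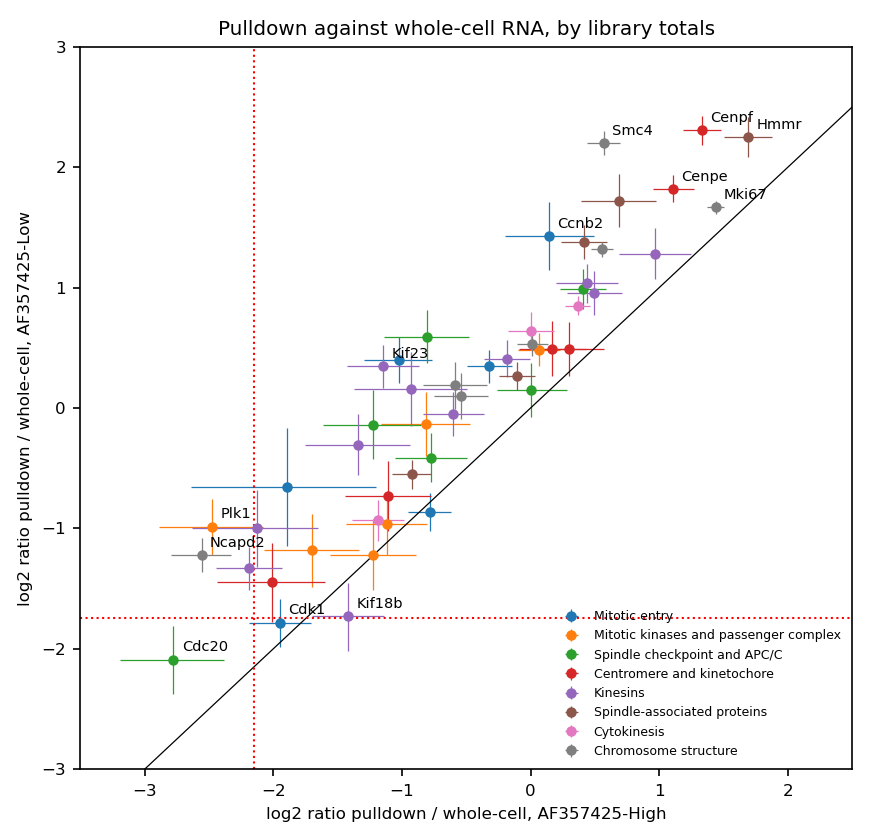
Log2 ratio of pulldown to whole-cell RNA by library totals in AF357425-High (x axis) and AF357425-Low (y axis) for the 50 genes, coloured by role, with 95% counting intervals; the diagonal marks equal ratios and the dotted red lines the medians of all measured genes. All but Foxm1 and Kif18b lie above the diagonal, and most lie above and to the right of the red lines. The red lines also cross above the diagonal, at -2.15 and -1.75. With TMM, the pulldown state ratio was lower than the whole-cell one for 38 of the 50.

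The state ratio differed between the kinds of library for part of the group. The change, the pulldown state ratio minus the whole-cell one on the log2 scale, uses the same 4 libraries as the ratios above and had a median of -0.24, against -0.00026 for the 11356 genes that had 10 or more reads in all 4 libraries. On the same measure cohesin genes had a median of -0.40, tubulin and centrosome genes -0.25 and APC/C genes -0.20. A negative change was thus not particular to the group. Further mitosis genes had -0.071, DNA replication genes 0.056, cell-cycle transcription factors 0.17, and G1 cyclins and CDK inhibitors 0.26. In the group the change was negative for 38 of the 50. With its whole interval it was negative for 25, against 28.2% of all genes, and positive for 3, against 28.5%. Of the 50, Smc4 alone passed 2-fold, at -1.27 (-1.44 to -1.11), against 1.66% of all genes on the lower side, and none passed it on the higher, against 2.65%. At least 1.5-fold lower were 15, against 17.4% of all genes, and 1 as much higher, against 17.9%. After Smc4 came Kif23 (-1.13, interval -1.46 to -0.80), Plk1 (-1.13, interval -1.58 to -0.68), Ccnb1 (-1.06, interval -1.38 to -0.74) and Bub1 (-1.04, interval -1.42 to -0.65). The 3 genes on the positive side were Kif18b (0.67, interval 0.28 to 1.06), Foxm1 (0.44, interval 0.21 to 0.66) and Mki67 (0.13, interval 0.046 to 0.21). With library totals 6 genes passed 2-fold, as Ccnb1, Plk1, Bub1, Kif23 and Ncapd2 joined Smc4, and the median of all genes moved by -0.36; with overlapping genes left out, which removes Smc4, none passed.

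Other genes of cell division were set beside the group, list by list. Of 74 further mitosis genes, 72 were measured in whole-cell RNA and 59 were negative, with a median of -0.18. None passed 2-fold by its interval, 4 (5.56%) were at least 1.5-fold lower, against 3.84% of all genes, and none as much higher. Depdc1b, a regulator of mitotic progression, was the lowest at -1.40 (-2.17 to -0.68) with 23 and 57 reads, and the kinetochore gene Dsn1 the highest at 0.41 (0.11 to 0.72). In the pulldown, 48 of 68 were negative with a median of -0.31, 17 were at least 1.5-fold lower and 3 as much higher, against 17.3% and 15.6% of all genes, and none passed 2-fold by its interval, against 2.9% on the lower side. The share of this list on the lower side, 17 of 68, is not far from that background. The ends were the cohesin protector Sgo2a at -1.05 (-1.40 to -0.70) and the centromere gene Cenpq at 0.76 (0.48 to 1.04).

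Genes of the preceding cell-cycle phases were read next. The 35 measured DNA replication genes had a whole-cell median of -0.18, with 30 negative and none at least 1.5-fold lower, and a pulldown median of -0.12, with 23 of 34 negative. Thymidine kinase Tk1 was the lowest in whole-cell RNA (-0.54, interval -0.76 to -0.33). In the pulldown, 1 replication gene passed 2-fold, Gins1, a subunit of the replicative helicase, at -4.75 (-7.82 to -2.84) with 2 and 71 reads; 1 of 34 is close to the 2.9% of all measured genes. G1 cyclins and inhibitors of cyclin-dependent kinases had medians of -0.17 and 0.061. Cyclin D1 (Ccnd1) had 14745 and 20283 whole-cell reads and a ratio of -0.55 (-0.58 to -0.52). The inhibitor Cdkn2a had the lowest whole-cell ratio of that list (-0.59, interval -0.84 to -0.33) and its highest pulldown ratio (1.45, interval 0.81 to 2.11), and Cdkn1b had the highest whole-cell ratio (0.32, interval 0.19 to 0.46).

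Machinery that cells keep outside mitosis had whole-cell medians between -0.095 and 0.016, and its calls in the pulldown stand against the same 2.9% of all genes. The 16 APC/C genes had medians of -0.095 and -0.29, with the core subunit Cdc27 past 2-fold in the pulldown (-1.14, interval -1.24 to -1.04). The 10 cohesin genes had 0.016 and -0.28, ranging in whole-cell RNA from Pds5b (-0.15, interval -0.25 to -0.048) to the loader Nipbl (0.26, interval 0.19 to 0.32). Cell-cycle transcription factors of the E2F, RB and MuvB families had -0.072 over 22 genes and 0.046 over 21, with none past 2-fold, and E2f8 was the lowest in whole-cell RNA (-0.26, interval -0.46 to -0.054). Tubulin and centrosome genes had -0.02 and -0.27, and the augmin subunit Haus6 and the centriole gene Cep152 were past 2-fold in the pulldown (-1.27, interval -1.48 to -1.07, and -1.43, interval -1.77 to -1.11). The role sets and the lists were chosen with earlier results of these data known, so their contrast is a description only. None of these 7 cell-division lists had a whole-cell median as low as a role set of the group, the highest of which was -0.27. The fibroblast markers, with -0.28 over 8 measured genes, did reach that level.

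**Figure D4:**
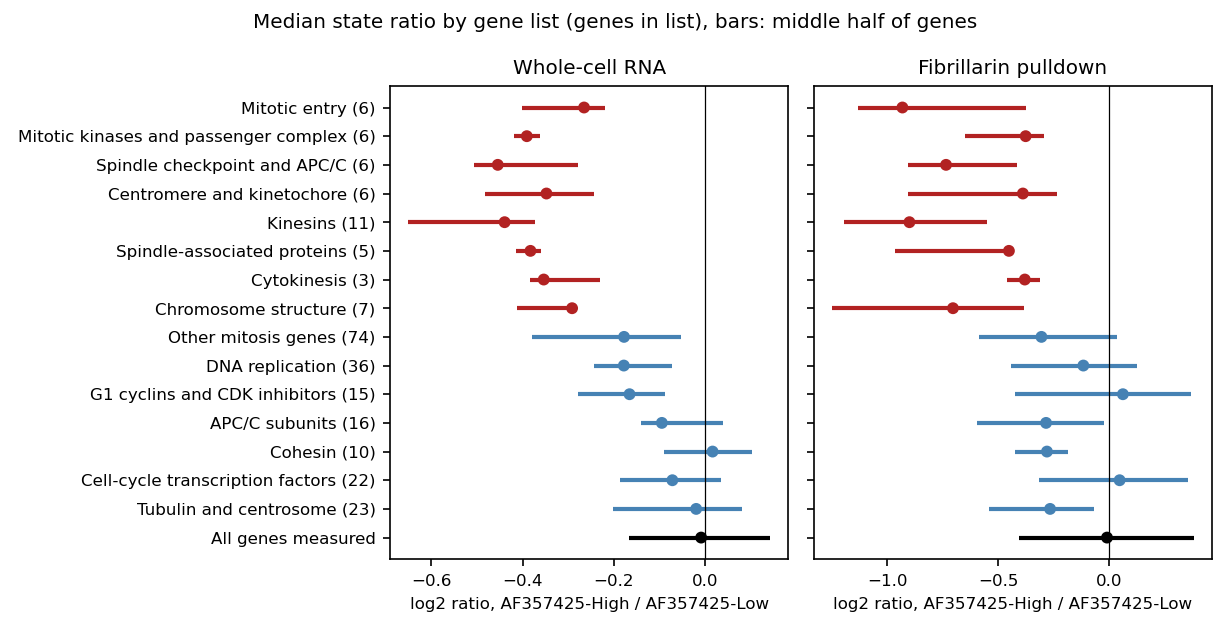
Median log2 ratio of AF357425-High to AF357425-Low (points; bars span the interquartile range) for the 8 role sets of the group (red), 7 other cell-division lists (blue) and all measured genes (black), in whole-cell RNA (left) and in the pulldown (right, on its own scale); numbers in brackets are genes in each list. All 8 red points lie between -0.27 and -0.45 in whole-cell RNA and between -0.38 and -0.93 in the pulldown.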

How the data were processed

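Libraries of whole-cell RNA and of fibrillarin-pulldown RNA, 1 per state, were analysed as the authors deposited them, as counts of fragments per gene. Per the submitters' processing notes, cutadapt 2.4, STAR 2.6.0c, HTSeq 0.9.1 and StringTie 1.3.4 were used with GRCm38; the sources used here do not name the annotation or the strand setting. Summary lines that name no gene were left out; between 50.0% and 56.2% of fragments were assigned to a gene. Symbols were matched to 55450 gene IDs, and spans and promoter windows came from RefSeq on GRCm38.p6.

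The state ratios were scaled by TMM (edgeR 4.0.16 under R 4.3.3) and the ratios of pulldown to whole-cell RNA by library totals. A gene counted as measured if its CPM averaged 1 or more over the pair. Ratios of 2 libraries have exact (Clopper-Pearson) 95% intervals, and the change over 4 libraries a normal interval on the log scale. A gene was called where its whole interval lay beyond 2-fold; counts at 1.5-fold and at no change are looser readings. No test between groups was run, since each group has 1 library, and the computation was tested on simulated data. Alternatives were library totals, DESeq2 1.42.0 size factors, totals without the 20 most abundant or the mitochondrial genes, other filters and members without overlapping genes. The 50 genes, their role sets and the other lists were chosen with earlier results of these data known. Printed counts follow a rule: in each role set the lowest and highest state ratio in each kind of library and the gene with most whole-cell reads, and each gene called; other members and the ends of the other lists are given more briefly.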

Additional observations from a re-analysis of the deposited data

How the results depend on the processing

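In whole-cell RNA the group's median ratio and its count of genes past 2-fold, 0, held under every scaling and filter tried, and every measured gene stayed negative, except Ncaph, which was just above 0 by library totals and by totals without the 20 most abundant genes. In the pulldown, all 11 genes stayed past 2-fold under the 3 other scalings. Library totals moved the pulldown median from -0.68 to -0.97 and brought 42 genes past 1.5-fold in place of 26 and 15 past 2-fold in place of 11, while the shares of all genes lower went from 17.3% to 31.3% and from 2.9% to 5.66%; 6 genes were past 2-fold with the 24 overlapping members left out. Leaving out Mki67 and Top2a, a choice made after the values were seen, moved the ratio of the sums to -0.38 for whole-cell RNA and -0.77 for the pulldown.

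Pulldown against whole-cell RNA depended on the scaling. In AF357425-High, TMM gave a median of 1.25 in place of -0.59, with 0 genes lower and 26 higher by more than 2-fold, and totals without mitochondrial genes gave 0.92, 0 and 23; of all genes, 22.6% were lower and 13.2% higher with TMM, and 30.5% and 9.04% without mitochondrial genes. In AF357425-Low these were 1.65, 0 and 32 with TMM and 1.60, 0 and 30 without mitochondrial genes, against 26.3% and 13.6%, and 27.4% and 12.8%, of all genes. Without overlapping members, the medians were -0.92 and 0.0091, with 5 and 3 genes lower and 6 higher in AF357425-Low. Members below 0 in AF357425-High numbered 30 by library totals, 8 with TMM and 9 without mitochondrial genes. In AF357425-Low they numbered 21, 4 and 4. Of the members more than 2-fold lower by library totals, Aurka and Kif18b turned positive in AF357425-High with TMM (0.14 and 0.42). Kif18b did so also without mitochondrial genes (0.094). In AF357425-Low, Kif20a and Ncapd2 of such members turned positive with TMM (0.097 and 0.20) and without mitochondrial genes (0.043 and 0.15). The change of the state ratio had a median of -0.60 and 6 genes past 2-fold with library totals, and 0 without overlapping members. The scalings shift all genes by a constant, and leaving members out means fewer genes. No paired analysis was possible because each group has 1 library. The fewest reads behind a gene were those of Cdc25c, 23 in the AF357425-High pulldown, and limit its ratio most.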

Other observations

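Members with long gene spans were relatively more abundant in the pulldown. The 25 members with the shorter spans, 2974 to 29886 bases, had a median log2 ratio of pulldown to whole-cell RNA of -1.14 in AF357425-High and -0.73 in AF357425-Low by library totals, and the 25 with the longer spans, 30146 to 101207 bases, had 0.014 and 0.54. Over all measured genes with spans in the same ranges, the medians were -2.38 and -2.03 for the shorter and -1.84 and -1.36 for the longer. Across the 50 members, Spearman's rho of this ratio with the span was 0.515 and 0.521 in the states, against 0.191 and 0.219 across all genes with a span. The state ratios of the members had weaker relations with the span, with a rho of -0.21 for whole-cell RNA and -0.18 for the pulldown. The span includes introns; transcript lengths were not used here.

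The B cyclins and Cdk1, partners in 1 kinase complex, differed in their place in the pulldown. By library totals Cdk1 had pulldown to whole-cell ratios of -1.95 (-2.19 to -1.71) and -1.78 (-1.98 to -1.59) in AF357425-High and AF357425-Low. Ccnb1 had -1.03 (-1.29 to -0.76) and 0.40 (0.21 to 0.59), and Ccnb2 0.14 (-0.20 to 0.49) and 1.43 (1.15 to 1.71). The medians of all measured genes were -2.15 and -1.75, so Cdk1 stood near them and both B cyclins above them.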
